A study of Mus musculus with 6 samples.

Results

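Muscle mitochondria make heat and ATP across the same inner membrane, and 4 genes that act there were examined in the muscle of Tarsl2 knockout mice. They are Ucp2 and Ucp3, which encode uncoupling proteins, and Slc25a4 and Slc25a5, which encode the adenine nucleotide translocases ANT1 and ANT2. The genes were chosen by name, with earlier results of these data known. They are 4 of the 53084 genes in the count table, and all 4 had enough reads to be among the 15075 genes tested. Among them, Ucp3 was 2.44-fold higher in knockout muscle, and no other of the 4 passed the test over all genes, of which 0.896% were higher and 1.37% lower in knockout muscle.

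RNA was sequenced from 3 Tarsl2+/+ and 3 Tarsl2-/- mice, 1 library per mouse. All were C57BL/6 males of 6 weeks, kept on chow under specific pathogen-free conditions, and the tissue is labelled only as muscle. The Tarsl2-/- mice came from zygotes injected with Cas9 and a pair of guide RNAs, which removed a fragment holding exon 3 in every cell of the body, so that nothing in the design is particular to muscle. The founders were crossed to C57BL/6J mice, the feeding state of the sequenced mice is not given in the sources used here, and Tarsl2 encodes a threonyl-tRNA synthetase-like protein.

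The SLC25 family of mitochondrial carriers moves metabolites across the inner membrane. ANT1 and ANT2 exchange ADP from the cytosol for ATP from the matrix, and thereby tie ATP synthesis to its use; ANT1 is the form typical of heart and skeletal muscle. The uncoupling proteins belong to the same family. UCP1 lets protons return to the matrix in brown fat and so makes heat, whereas what UCP2 and UCP3 transport in living tissue is debated. Ucp3 is expressed mainly in skeletal muscle, heart and brown fat and is known to rise when fatty acids are the main fuel, and Ucp2 is expressed widely, leukocytes included.

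The libraries held from 16176591 to 20123767 counts, and 3 counts corresponded to 0.146 to 0.187 CPM (CPM are counts over the library total, which TMM scaling first corrects by a trimmed mean of the ratios between libraries). In the targeted gene, Tarsl2, 456, 605 and 464 counts were found in Tarsl2+/+ mice 583, 584 and 595, and 40, 30 and 37 in Tarsl2-/- mice 588, 589 and 591. Its log2 fold change, here always Tarsl2-/- over Tarsl2+/+, was -3.81 (SE 0.16, adjusted p = 6.45e-07). Unless another test is named, adjusted p-values given here come from the quasi-likelihood test of edgeR, adjusted over all tested genes by the Benjamini-Hochberg method. Over all tested genes, 2.27% passed at an adjusted p under 0.05, and the median log2 fold change was 0.00253. Markers of skeletal muscle were high in every library, and 10 retinal genes, looked at because the sample records mention a retinal extraction, had at most 7 counts.

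The promoters of the uncoupling protein pair are shown because these neighbouring genes follow each other on chromosome 7 of GRCm38, read in the same direction with 6904 bases between them, and yet had fold changes of opposite sign. Ucp3 (ENSMUSG00000032942) spans chr7:100472990-100486432 and Ucp2 (ENSMUSG00000033685) spans chr7:100493337-100502020. The stretches below come from the promoter windows of RefSeq (GRCm38.p6), plus strand, 5′ to 3′, and end at the last base before transcription starts in either annotation, so they hold 249 and 229 bases (chr7:100472741-100472989 and chr7:100493108-100493336). Capitals mark a match, with 2 mismatches, to the DR1 motif that dimers of PPAR and RXR nuclear receptors bind, which is AGGTCA, any 1 base, and AGGTCA again.
Ucp3: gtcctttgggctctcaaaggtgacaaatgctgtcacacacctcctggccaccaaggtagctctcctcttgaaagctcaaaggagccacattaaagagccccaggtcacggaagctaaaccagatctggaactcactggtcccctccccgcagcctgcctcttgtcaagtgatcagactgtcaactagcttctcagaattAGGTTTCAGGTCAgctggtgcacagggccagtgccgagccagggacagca
Ucp2: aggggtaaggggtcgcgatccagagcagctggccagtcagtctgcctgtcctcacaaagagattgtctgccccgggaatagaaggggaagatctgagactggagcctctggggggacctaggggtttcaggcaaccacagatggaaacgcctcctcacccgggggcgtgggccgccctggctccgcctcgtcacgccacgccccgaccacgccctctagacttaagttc

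The DR1-like stretch lies 51 to 39 bases before the RefSeq start of Ucp3. With up to 2 mismatches on either strand, 3.2% of the 32544 distinct promoter windows of 250 bases held such a match, and none was found for Ucp2, Slc25a4 or Slc25a5. AGGTCA alone occurred 2 times in the Ucp3 window, once inside the DR1-like stretch, and in 14.0% of all windows. An E-box, CANNTG, occurred in all 4 windows and in 66.2% of all. A GC box, GGGCGG, occurred in those of Ucp2 and Slc25a5 and in 33.0% of all, while none of the 4 had TATAAA, which 12.3% had. These are matches of letters and say nothing of binding.

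How far the reads of each pair can be told apart depends in part on how much their coding sequences differ. The untranslated parts of their exons, which also give reads, were not compared. Ucp2 and Ucp3, of 309 and 308 codons, were identical at 693 of 918 aligned coding bases (75.5%), with no identical run over 24 bases. Slc25a4 and Slc25a5, each of 298 codons, were identical at 695 of 897 (77.5%), with no run over 20. Between an uncoupling protein and a translocase the identity was 55.5% to 60.7%. The lines below give 90 coding bases of each gene (GENCODE vM21, 5′ to 3′), taken at coding bases 523 to 612 of Ucp2, 520 to 609 of Ucp3 and 287 to 376 of both translocases, with the 19 bases that differ within each pair in capitals.
Ucp2: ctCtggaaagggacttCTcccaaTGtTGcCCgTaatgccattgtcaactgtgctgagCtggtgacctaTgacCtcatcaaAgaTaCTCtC
Ucp3: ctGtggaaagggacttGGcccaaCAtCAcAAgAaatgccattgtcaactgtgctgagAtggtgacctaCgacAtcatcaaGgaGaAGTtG
Slc25a4: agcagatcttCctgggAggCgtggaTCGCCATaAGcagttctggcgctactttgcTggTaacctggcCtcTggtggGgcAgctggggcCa
Slc25a5: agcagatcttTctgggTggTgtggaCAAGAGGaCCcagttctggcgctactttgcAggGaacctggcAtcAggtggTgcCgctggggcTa

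Ucp3 rose in Tarsl2-/- muscle. It had 656, 792 and 774 counts in Tarsl2+/+ mice 583, 584 and 595, and 1984, 1565 and 1797 in Tarsl2-/- mice 588, 589 and 591, or 38.4, 42.1 and 40.6 CPM against 110.6, 97.6 and 87.3. The lowest Tarsl2-/- mouse thus lay far above the highest Tarsl2+/+ mouse, and the Tarsl2+/+ mice were close together. The means were 40.4 ± 1.88 and 98.5 ± 11.7 CPM (SD, n = 3 each). The log2 fold change was 1.29 (SE 0.10, 95% interval 1.07 to 1.51, adjusted p = 0.00036), a fold of 2.44 with an interval of 2.09 to 2.84. An exact two-sided permutation test gave p = 0.1, the smallest that 3 mice against 3 allow. Gm10603, an antisense RNA gene over the start of Ucp3, shares no exonic base with it and had 16 to 28 counts.

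Ucp2 did not pass the test, though its values were lower in every Tarsl2-/- mouse. It had 1708, 1806 and 2404 counts in Tarsl2+/+ mice 583, 584 and 595, and 1550, 1385 and 1742 in Tarsl2-/- mice 588, 589 and 591. These were 99.9, 95.9 and 126.2 CPM against 86.4, 86.4 and 84.7. The Tarsl2-/- mice were nearly equal, whereas mouse 595 stood above the other Tarsl2+/+ mice. The means were 107 ± 16.5 and 85.8 ± 1.01 CPM (SD, n = 3 each), and the log2 fold change was -0.32 (SE 0.11, 95% interval -0.56 to -0.088, adjusted p = 0.13; exact two-sided permutation p = 0.1). Without mouse 595 it was -0.19 (adjusted p = 0.352), and it passed only in a fit without a filter on low counts (adjusted p = 0.0375). The groups also did not overlap in 24.6% of all tested genes. Dnajb13, on the other strand, shares 305 bases with the exons of Ucp2 (4.4%) and had 4 to 13 counts.

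Markers of several cell types moved with the genotype, among them those of leukocytes, which express Ucp2. Of 15 leukocyte markers tested, 10 were lower in Tarsl2-/- muscle and 0 higher, with a median log2 fold change of -0.60. Over all tested genes, 1.37% were lower and 0.896% higher. Of the 16 leukocyte markers listed, none was at 0 in all libraries, and Lyz2 and C1qa, a lysozyme and a complement gene of macrophages, were the highest. The summed level of the 16 was 1723 to 1948 CPM in Tarsl2+/+ and 970.4 to 1243 in Tarsl2-/- muscle. The number of these markers that passed fell to 2 without Tarsl2+/+ mouse 583, to 6 without Tarsl2+/+ mouse 595 and to 4 without Tarsl2-/- mouse 588 or 589, and their median then stayed between -0.60 and -0.52. Red cell markers were summed to 4748 to 10392 CPM in Tarsl2+/+ and 4166 to 4536 in Tarsl2-/- muscle, and fibroblast markers to 8433 to 9957 and 7167 to 8337. Of these, 0 of 6 and 0 of 5 passed, with 5 and 1 at an unadjusted p under 0.05, and the medians were -0.86 and -0.23. The red cell median was -0.47 without mouse 595, and 5 of the 6 passed without mouse 584. Of 5 endothelial markers 1, Cdh5, was lower. Of 5 skeletal muscle markers 2, Ckm and Des, were higher and 0 lower. The log2 fold change was positive for 3 of the 5, with a median of 0.14. The sums of all 5 were 34984 to 38338 CPM in Tarsl2+/+ and 39296 to 45162 in Tarsl2-/- muscle. Of the 6 fits that each left out a mouse, Ckm passed in 1 and Des in 2. The part of these cell types in the Ucp2 values was not tested. In a whole tissue, fewer cells of a type and less RNA per cell cannot be told apart.

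**Figure D1:**
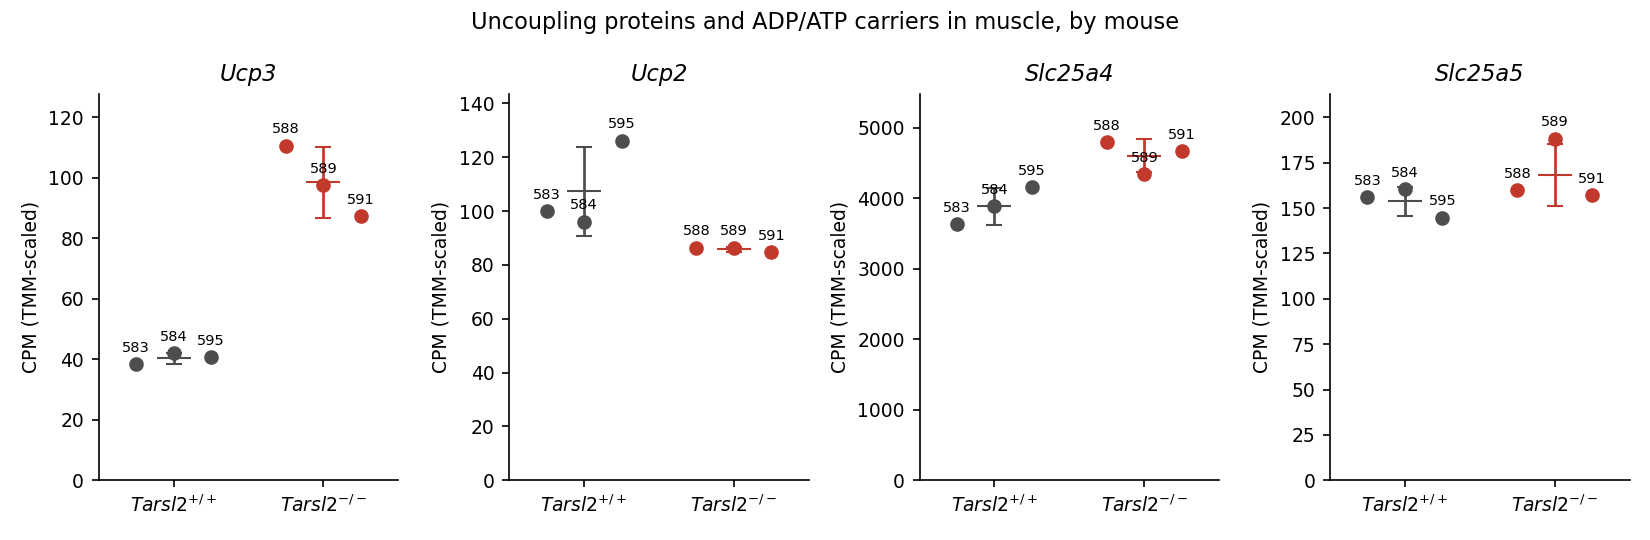
CPM after TMM scaling on the vertical axes for the 3 Tarsl2+/+ mice (grey) and the 3 Tarsl2-/- mice (red), 1 point per mouse with its number, with the mean (long bar) and SD (capped line). Ucp3 separates at 38.4 to 42.1 against 87.3 to 110.6 CPM, Ucp2 and Slc25a4 separate by less, and Slc25a5 overlaps.

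The order of the uncoupling protein genes differed between genotypes. The log2 ratio of Ucp3 to Ucp2 counts was -1.38, -1.19 and -1.64 in Tarsl2+/+ mice 583, 584 and 595, and 0.36, 0.18 and 0.04 in Tarsl2-/- mice 588, 589 and 591. Every Tarsl2+/+ mouse thus had fewer Ucp3 than Ucp2 reads and every Tarsl2-/- mouse had more. The means differed by 1.59 (exact two-sided permutation p = 0.1, the smallest possible), and by 1.48 to 1.70 when each mouse was left out in turn. Per length, with the exonic length listed in the table (RPKM, CPM divided by the length in kilobases), the level of Ucp3 was 0.851 ± 0.13 times that of Ucp2 in Tarsl2+/+ and 2.56 ± 0.279 times in Tarsl2-/- muscle (SD, n = 3). With the length of an annotated coding transcript of each gene, 2448 bases for Ucp3 and 3988 for Ucp2, the order was the same. These ratios were then 0.622 ± 0.095 in Tarsl2+/+ and 1.87 ± 0.204 in Tarsl2-/- muscle. Both ratios per length depend on the lengths taken. Ucp2 has 11 annotated transcripts and Ucp3 has 4, and which of them gave the reads was not tested.

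Slc25a4 (ENSMUSG00000031633, minus strand of chr8:46206797-46211284) was by far the most abundant of the 4, as the 45th gene of the table by mean RPKM. It had 62092, 73206 and 79142 counts in Tarsl2+/+ mice 583, 584 and 595, and 86080, 69634 and 96132 in Tarsl2-/- mice 588, 589 and 591, or 3630, 3889 and 4155 CPM against 4799, 4343 and 4672. Each Tarsl2-/- mouse was above each Tarsl2+/+ mouse, by as little as the step from 4155 to 4343 CPM. In 24.6% of all tested genes the groups likewise did not overlap. The means were 3891 ± 262 and 4605 ± 235 CPM (SD, n = 3 each). The log2 fold change of 0.24 (SE 0.10, 95% interval 0.014 to 0.47) did not pass over all genes (adjusted p = 0.225; exact two-sided permutation p = 0.1). When each mouse was left out it was 0.19 to 0.29 and never passed.

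Slc25a5 (ENSMUSG00000016319, plus strand of chrX:36795651-36798807), the form typical of dividing cells, had 2667, 3019 and 2757 counts in Tarsl2+/+ mice 583, 584 and 595, and 2867, 3017 and 3234 in Tarsl2-/- mice 588, 589 and 591. These were 155.9, 160.4 and 144.7 CPM against 159.8, 188.2 and 157.2, so that the groups overlapped and mouse 589 stood highest. The means were 154 ± 8.06 and 168 ± 17.2 CPM (SD, n = 3 each). The log2 fold change was 0.13 (SE 0.10, 95% interval -0.08 to 0.34, adjusted p = 0.488; exact two-sided permutation p = 0.3), and 0.05 without mouse 589. Its annotated pseudogene Slc25a5-ps had 4 counts in mouse 595, 1 in mouse 591 and 0 in the rest.

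Per length, Slc25a4 was at 1654 RPKM in Tarsl2+/+ and 1957 in Tarsl2-/- muscle, and Slc25a5 at 93.4 and 102. The level of Slc25a4 was 17.8 ± 2.02 times that of Slc25a5 in Tarsl2+/+ and 19.3 ± 2.75 times in Tarsl2-/- muscle (SD, n = 3), and the log2 ratio of counts differed by 0.12 between genotypes (exact two-sided permutation p = 0.6), which is within its spread between mice. The Ucp genes were lower on the same scale. Ucp3 was at 12.9 and 31.4 RPKM and Ucp2 at 15.4 and 12.3, so that Slc25a4 exceeded Ucp3 by 128 ± 6.86 times in Tarsl2+/+ and 62.8 ± 7.39 times in Tarsl2-/- muscle. The order in Tarsl2+/+ muscle was Slc25a4, Slc25a5, Ucp2 and Ucp3, of which Ucp2 and Ucp3 were neighbours whose RPKM ratio came closest to 1 (0.978 in mouse 584).

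Of the 5 closest relatives of these genes, 4 could be tested and 0 passed by edgeR, with 0 at an unadjusted p under 0.05 and 0 called by DESeq2. Ucp1, the heat-making protein of brown fat, had 1062, 1093 and 74 counts in Tarsl2+/+ mice 583, 584 and 595, and 278, 914 and 751 in Tarsl2-/- mice 588, 589 and 591. Its values thus ran over more than a 10-fold range inside the Tarsl2+/+ group, and the log2 fold change was -0.19 with a wide 95% interval of -1.66 to 1.29 (adjusted p = 0.916). Slc25a27 (UCP4), Slc25a14 (UCP5) and Slc25a30, also named as uncoupling proteins or their kin, lay between 2.60 and 4.65 CPM in group means, with log2 fold changes of 0.31, -0.11 and -0.19 (adjusted p 0.555 to 0.813). Slc25a31, the translocase of the testis, had at most 11 counts and was not tested.

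Because Ucp3 is also a gene of brown fat, the 4 brown adipocyte markers Ucp1, Cidea, Elovl3 and Dio2 were summed. None was at 0 in all libraries. The sums were 111, 125 and 21.7 CPM in Tarsl2+/+ mice 583, 584 and 595, and 57.3, 175 and 93.6 in Tarsl2-/- mice 588, 589 and 591, which overlap. With the log2 of this sum as a covariate, a fit added after the values were seen, the log2 fold change of Ucp3 was 1.302 (adjusted p = 0.000173) and that of Ucp2 was -0.25 (adjusted p = 0.167). With so few mice and a sum of 4 genes, this fit is only a description. The part of brown fat in the Ucp3 values was not tested. Of 6 general adipocyte markers 5 had positive log2 fold changes, with a median of 0.43 that was -0.19 without mouse 589. None passed, with 2 at an unadjusted p under 0.05. The sums of the 6 markers, 2661 to 4048 CPM in Tarsl2+/+ and 3099 to 6843 in Tarsl2-/- muscle, overlapped.

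**Figure D2:**
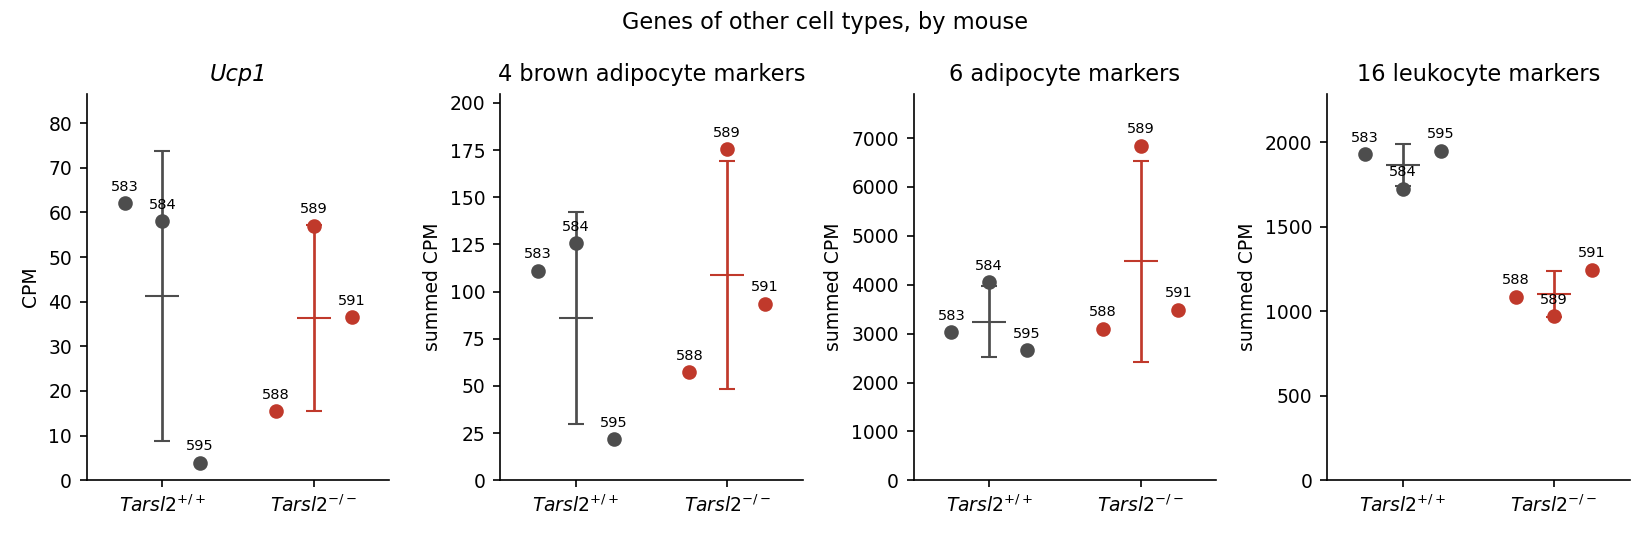
CPM of Ucp1 and summed CPM of the markers of brown adipocytes, adipocytes and leukocytes, 1 point per mouse with its number, with the mean (long bar) and SD (capped line) of the 3 Tarsl2+/+ (grey) and 3 Tarsl2-/- (red) mice. The leukocyte sums do not overlap, at 1723 to 1948 against 970.4 to 1243, whereas the other 3 panels do.

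In the rest of the SLC25 family, most log2 fold changes were positive and few passed. Of 42 other carriers in the table, 36 were tested. Of these, 2 were higher in Tarsl2-/- muscle and 0 lower, against 0.896% higher over all tested genes. Positive values were found for 31 of 36, against 50.4% of all tested genes, with a median of 0.17 that stayed between 0.13 and 0.26 in every other fit. The groups did not overlap for 11 of the 36 (24.6% of all tested genes).

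Slc25a34, a carrier whose substrate is not settled, rose from 4.50 ± 1.17 to 11.6 ± 1.63 CPM (SD, n = 3 each), with a log2 fold change of 1.36 (SE 0.19, adjusted p = 0.00574). It passed in 6 of 6 fits that each left out a mouse. Slc25a22, a mitochondrial glutamate carrier, rose from 8.60 ± 1.69 to 15.2 ± 3.82 CPM (log2 fold change 0.82, adjusted p = 0.0481), but was called without 1 mouse only when that mouse was 584, and in the other 5 fits the adjusted p was 0.0601 to 0.167. The carriers with the highest CPM were Slc25a3, which brings phosphate into the matrix, with 821 ± 89.3 and 857 ± 45.5 CPM, and Slc25a12, an aspartate-glutamate carrier, with 229 ± 11.7 and 280 ± 17.5. The log2 fold change was 0.06 for Slc25a3 (adjusted p = 0.797) and 0.29 for Slc25a12 (adjusted p = 0.108).

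**Figure D3:**
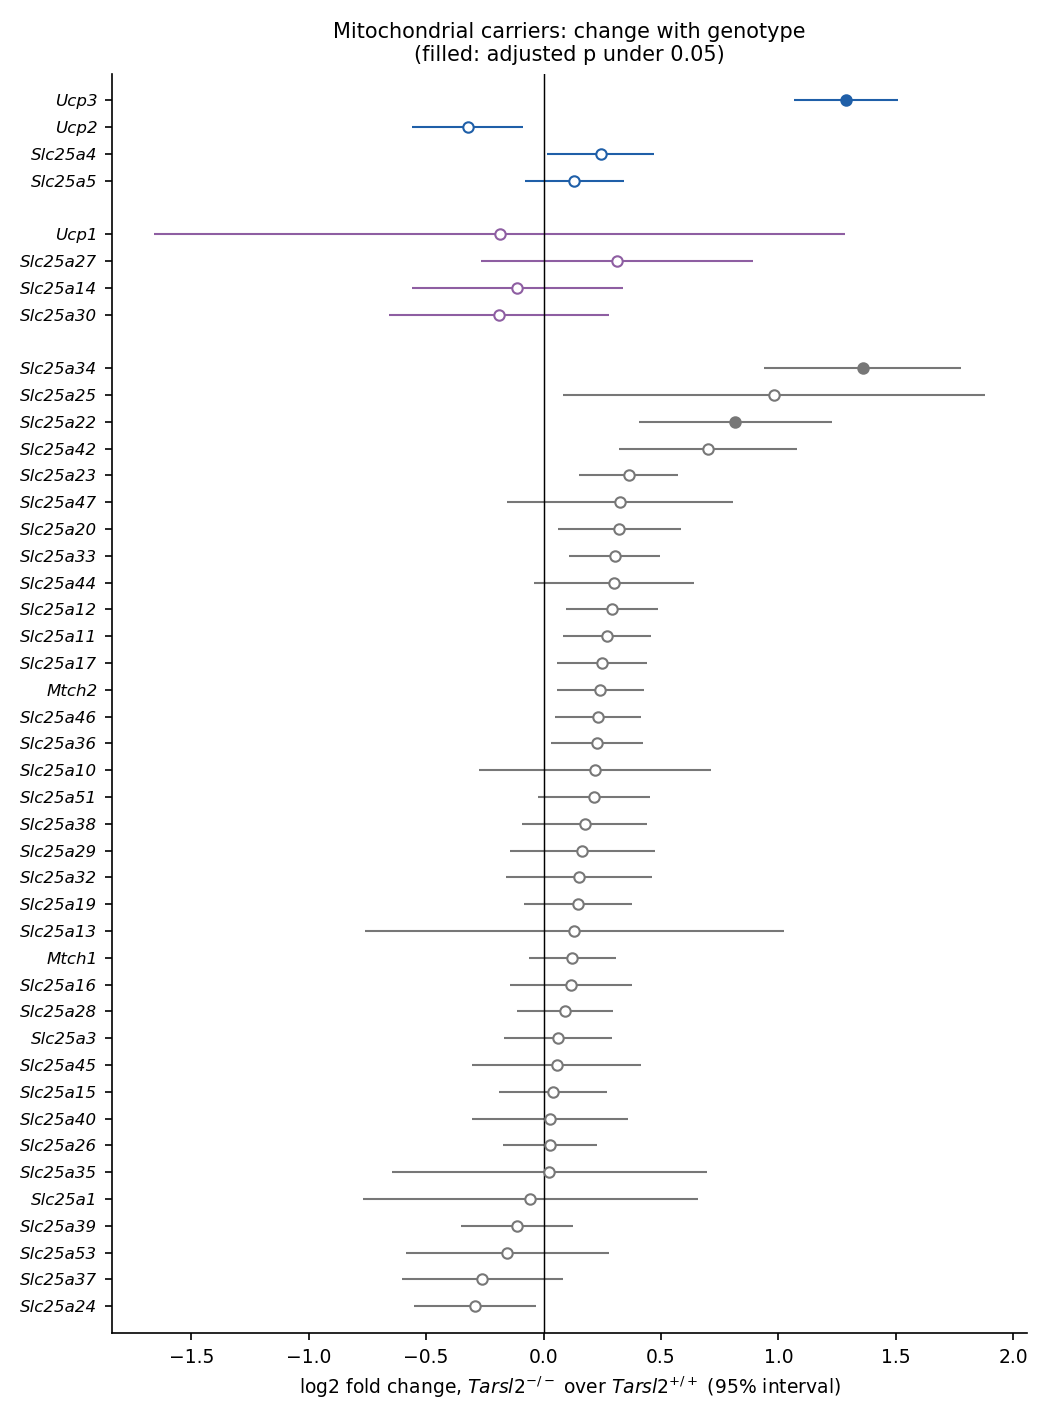
Log2 fold change of Tarsl2-/- over Tarsl2+/+ muscle (horizontal axis) with its 95% interval for the 4 genes (blue), their tested close relatives (purple) and the 36 other tested SLC25 carriers (grey), filled where the adjusted p was under 0.05. Ucp3 at 1.29, Slc25a34 at 1.36 and Slc25a22 at 0.82 are filled, and the interval of Ucp1 is the widest among the 4 relatives.

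ATP that ANT1 exports is used or stored as creatine phosphate. The list looked at was wider, of the transfer of adenine nucleotides and phosphate groups, and also holds genes outside creatine phosphate storage, such as Ppif. Of its 16 tested genes, 2 were higher and 0 lower, against 0.896% higher over all tested genes, with a median of 0.11. Ckm, the muscle creatine kinase, rose from 5450 ± 449 to 7652 ± 323 CPM (log2 fold change 0.49, adjusted p = 0.0433). Ppif, cyclophilin D of the permeability transition pore, rose from 20.2 ± 2.06 to 30.04 ± 2.51 CPM (0.57, adjusted p = 0.0218). Neither was firm: Ckm passed only without mouse 584 among the fits that left out a mouse (adjusted p 0.0563 to 0.142 in the others), and Ppif only without mouse 584 or 591 (0.0687 to 0.11 in the others). Vdac1, the outer membrane channel, was the other gene with the highest CPM, with a log2 fold change of 0.17 (adjusted p = 0.365).

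Against 0.896% higher and 1.37% lower over all tested genes, 1 of 17 ATP synthase genes was higher and 0 lower. It was Atp5b, the catalytic beta subunit, at 1658 ± 143 and 2389 ± 157 CPM (log2 fold change 0.53, adjusted p = 0.028), again called only without mouse 584 (0.0555 to 0.14 in the others). The median of the list was -0.04, turned to 0.01 without mouse 595, and the genes with the highest CPM did not pass, Atp5e at -0.43 (adjusted p = 0.177) and Usmg5 at -0.23 (adjusted p = 0.384).

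Fatty acid handling genes, many of them targets of PPAR receptors as Ucp3 is, had the most calls of the 7 lists plotted by fold change. Of 29 tested, 7 were higher and 0 lower, against 0.896% higher over all tested genes. Positive values were found for 28, against 50.4% of all, the groups did not overlap for 18, against 24.6% of all, and the median log2 fold change was 0.39. The list was written with earlier results of these data known, so the shares over all genes are no test of it. Pdk4, the kinase that holds back pyruvate dehydrogenase, rose from 119 ± 2.82 to 293 ± 47.2 CPM (log2 fold change 1.304, adjusted p = 0.000464) and passed in 6 of 6 fits that left out a mouse. Plin5, a lipid droplet protein, rose from 13.7 ± 1.601 to 27.8 ± 6.99 CPM (1.01, adjusted p = 0.0134). Mlycd, malonyl-CoA decarboxylase, rose from 73.1 ± 2.71 to 103 ± 3.82 CPM (0.50, adjusted p = 0.0124). Ppara, the receptor itself, was low, at 1.06 ± 0.263 and 3.25 ± 0.766 CPM (1.59, adjusted p = 0.018).

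The lipase inhibitor Angptl4 (log2 fold change 1.16, adjusted p = 0.0268), the acyl-CoA dehydrogenase Acadvl (0.77, adjusted p = 0.0285) and the coactivator Ppargc1b (1.10, adjusted p = 0.037) were the other genes that rose. Of the 6 fits that each left out a mouse, Angptl4, Plin5 and Mlycd passed in 4, Acadvl and Ppara in 2 and Ppargc1b in 1, with adjusted p-values of up to 0.134 in the rest. Lpl and Fabp3, the most abundant of the list, had 0.30 (adjusted p = 0.293) and 0.07 (adjusted p = 0.757). The count of 7 depended on single mice. It was 2 without Tarsl2+/+ mouse 583 or 595, 3 without Tarsl2-/- mouse 589 and 4 without Tarsl2-/- mouse 591, and the median was then 0.31 to 0.47. Mouse 589 also had the highest adipocyte markers, whose part in these values was not tested.

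In the list of heat production, 2 of 10 tested genes were higher and 0 lower, against 0.896% higher over all tested genes. The median was 0.03, and -0.11 without mouse 589. Sln, the peptide sarcolipin that uncouples the calcium pump, rose from 29.3 ± 0.597 to 53.9 ± 12.3 CPM (log2 fold change 0.88, adjusted p = 0.0119). Without mouse 583 or 595 its adjusted p was 0.0579 and 0.0503. Ryr1, the calcium release channel, rose from 299 ± 14.98 to 400.0 ± 26.5 CPM (log2 fold change 0.42, adjusted p = 0.0403). In the fits that left out a mouse its log2 fold change was 0.36 to 0.45, and 0 of 6 passed (adjusted p 0.053 to 0.15). The genes with the highest CPM here were Atp2a1, the calcium pump of fast fibres, with a log2 fold change of 0.57 (adjusted p = 0.0659), and Cox8b with -0.07 (adjusted p = 0.773).

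Of 11 tested genes of mitochondrial redox defence, 0 passed by edgeR. With an unadjusted p under 0.05 there were 2, and DESeq2 called 1. The glutathione peroxidases Gpx4 and Gpx1 had the highest CPM, with log2 fold changes of -0.30 and -0.22 (adjusted p = 0.167 and 0.281).

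**Figure D4:**
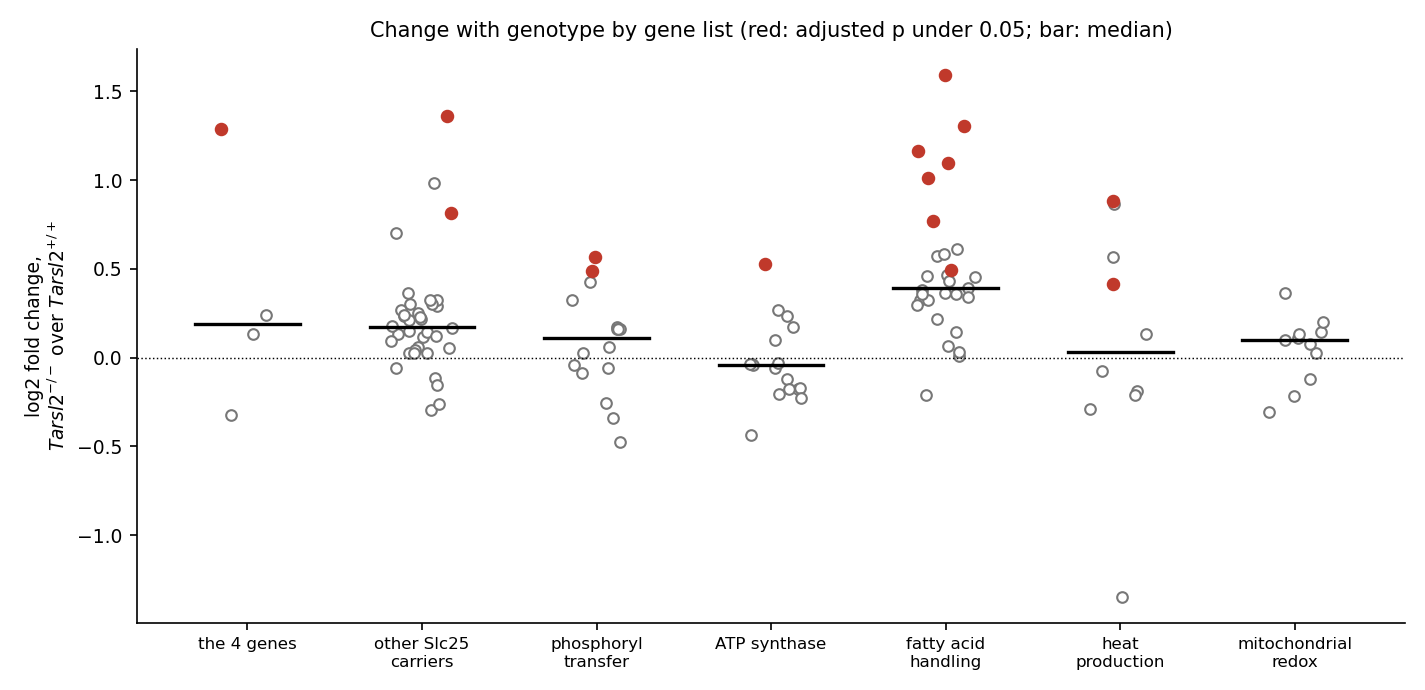
Log2 fold change of Tarsl2-/- over Tarsl2+/+ muscle (vertical axis) for each tested gene of 7 lists, red where the adjusted p was under 0.05, with the list's median as a bar; sideways scatter only separates the points. Fatty acid handling has the highest median of the 7, 0.39, and 7 red points, while ATP synthase lies near 0 with 1.

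Fibre types were looked at because the muscle is not named and the level of Ucp3 is known to differ between fibre types. Of 7 slow fibre markers all had positive log2 fold changes, with a median of 0.50 that was 0.13 without Tarsl2-/- mouse 589. None passed by edgeR or DESeq2 (3 at an unadjusted p under 0.05), although 5 did in a fit without a filter on low counts, and the groups overlapped, with sums of 787 to 1423 CPM in Tarsl2+/+ and 1089 to 1728 in Tarsl2-/- muscle. Of 8 tested fast fibre markers, 2 were higher, Myh1 (log2 fold change 0.59) and Actn3 (0.69), against 0.896% higher over all tested genes. The sums of the fast fibre markers, 97764 to 106870 and 101227 to 113201 CPM, overlapped. The part of fibre type in the Ucp3 difference was not tested.

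The genes whose log2 CPM most resembled each of the 4 over the 6 mice, of 12448 compared, are given as a description; the points fall into the genotype groups, and all r exceeded 0.98. For Ucp3 they were Snai3, Aqp4, Actn3, Des and D5Ertd579e (r = 0.992 to 0.987), of which the first 4 were also higher in Tarsl2-/- muscle, with log2 fold changes of 1.03, 0.91, 0.69 and 0.50. For Ucp2 they were Has2os, Cox14, Ifih1, Ndufb6 and Gm11967 (0.998 to 0.992), of which Gm11967 alone passed (-1.63, adjusted p = 0.0347). For Slc25a4 they were Podxl2, Rnps1, Rpl3l, Sbk2 and Cep170b (0.997 to 0.993), and for Slc25a5 Slc24a3, Ankef1, Desi1, Tug1 and Prrc2a (0.995 to 0.991), and none of these 10 passed.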

How the data were processed

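Muscle RNA of 3 Tarsl2+/+ and 3 Tarsl2-/- mice was sequenced from stranded poly(A) libraries with paired ends, which the authors aligned to mm10 by HISAT2, depositing whole-number counts per gene. The counting tool, annotation and use of strand are not given in the sources used here, and the submitters' processing notes name Bowtie 0.12.2 and mm8 instead. The table's coordinates fit GRCm38: of 52636 Ensembl identifiers, 52489 were found in GENCODE vM21, and 95.2% of these had the same start and end. The gene lengths used for RPKM are those the authors list.

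Samples were grouped by genotype from their records. The title of mouse 589 has KOT where those of the other Tarsl2-/- mice have KO, and the meaning is not given in the sources used here. Mouse 589 was kept as Tarsl2-/- by its genotype label. Genes were kept by filterByExpr (minimum count 10, minimum total count 15) and tested with edgeR 4.0.16 (TMM, glmQLFit and glmQLFTest, genotype only) in R 4.3.3, with Benjamini-Hochberg adjustment over 15075 genes and a threshold of 0.05. Single values were compared by exact permutation tests. Intervals have a confidence level of 95%, and the common biological coefficient of variation was 12.1%. The p-values of edgeR set the difference between genotypes against the spread between mice, estimated with information shared across genes. The procedure was tested on simulated data. Alternatives were DESeq2 1.42.0, limma-voom (limma 3.58.1), other size factors and filters, and each mouse left out.

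The genes and lists were chosen with earlier results of these data known, and lists were not tested as sets. The genes named were the 4, their close relatives, overlapping genes and pseudogenes, the genes past the threshold in each list (at most 8) with the 2 of highest mean CPM, and for each of the 4 the 5 most correlated genes whose mean was 1 log2 CPM or more. Correlations used log2 CPM with a prior count of 2. Sequences come from RefSeq (GRCm38.p6, an entry for all 4) and GENCODE vM21. Protein sequences were not used here.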

Additional observations from a re-analysis of the deposited data

How the results depend on the processing

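No paired analysis was done, because the sources used here do not say which of the sequenced mice, if any, were littermates. The log2 fold changes of Ucp3 (1.20 to 1.36) and Tarsl2 (-3.91 to -3.69) passed the threshold in every fit that left out one replicate and in every other alternative. Those of Slc25a4 (0.19 to 0.29) and Slc25a5 (0.05 to 0.18) passed in none. Ucp2 ranged from -0.40 to -0.19 without one replicate and passed only without a filter on low counts (-0.33, adjusted p = 0.0375 by edgeR), whereas DESeq2 gave an adjusted p of 0.0952. Over all genes, 342 were called, 670 with DESeq2, of which 338 were shared, and 1437 without the filter on low counts; the cause was not tested. Leaving out one replicate gave from 81 genes (without Tarsl2+/+ mouse 583) to 625 (without Tarsl2+/+ mouse 584), so many calls depend on single mice. Limma-voom, RLE and upper quartile scaling, at least 10 counts in every library and the brown adipocyte covariate gave from 318 to 363. The log2 ratio of Ucp3 to Ucp2 differed by 1.48 to 1.70 and that of Slc25a4 to Slc25a5 by 0.05 to 0.24 without one replicate, and a pseudocount of 0.5 changed neither sign. Differences as small as that of Slc25a5 were within the spread between 3 mice at this depth.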

Other observations

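A few genes named after their values were seen stood out by how little was counted on them. Nnt, the transhydrogenase of the inner membrane, in which C57BL/6J mice are known to carry a deletion, had 2, 3 and 5 counts in Tarsl2+/+ mice 583, 584 and 595 and 13, 8 and 13 in Tarsl2-/- mice 588, 589 and 591. It was below the filter and was not tested. At these low counts the groups did not overlap, which was also so in 24.6% of all tested genes. Tnnc2, the troponin C of fast fibres, had 2 to 4 counts in every library, although Tnnt3 and Tnni2, which encode its partners in fast fibres, were above 9916 CPM. In the annotation, 74.0% of the exonic bases of Tnnc2 are shared with Ube2c on the other strand, which had 125 to 257 counts. Cpt1b, the muscle enzyme that passes fatty acids to the carnitine shuttle, had 9 to 19 counts. It lies inside the span that the count table lists for Chkb, on the same strand, and both spans begin at chr15:89416405. In the exons of GENCODE vM21 the genes share no base, but the exons behind the counts are not given in the sources used here. Chkb had 411 to 526 counts. How the counting treated such genes was not tested. Within the SLC25 family, Slc25a25, a carrier of ATP-Mg and phosphate, had 1525, 1152 and 314 counts in Tarsl2+/+ mice 583, 584 and 595 and 2144, 1937 and 1834 in Tarsl2-/- mice 588, 589 and 591, with a log2 fold change of 0.98 (SE 0.41) that did not pass (adjusted p = 0.211 by edgeR).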
